A study of Mus musculus with 15 samples.

Results

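The 10 genes described here encode the aryl hydrocarbon receptor (AhR), its dimerisation partner, its feedback repressors and the enzymes it is best known for inducing. They were chosen by name, with earlier results of these data known, so counts of them beside all genes are a description. They are *Ahr*, *Arnt*, *Ahrr*, *Tiparp*, *Cyp1a1*, *Cyp1a2*, *Cyp1b1*, *Nqo1*, *Aldh3a1* and *Ugt1a6a*. All 10 were among the 48709 genes counted in 15 RNA-seq libraries of mouse embryonic stem cells (ESCs). The largest rise came under indole-3-acetic acid (IAA), the auxin used to degrade OCT4. *Cyp1a1* went from 0.752 to 11.4 CPM (reads per mega-read counted) within 1.5 h and reached 292 CPM at 24 h. In cells losing OCT4 gradually by gene deletion, without IAA, it stayed between 1.73 and 4.02 CPM over 36 h.

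OCT4 was removed by either of 2 routes. CreER ESCs (genotype Oct4Fl/-; CAG CreER, on a mixed 129SV and C57BL/6 background) carry a floxed copy of *Pou5f1*, the gene for OCT4, opposite a null copy, and 500 nM 4-OHT activates a ubiquitously driven Cre that deletes it. The CreER course has 2 replicates for each of 0, 12, 18, 24 and 36 h, and never received IAA. O4AID ESCs (129SV, from the ZHBT line) are Oct4-/- at the endogenous locus and carry TetOFF Oct4, a wild-type transgene kept silent with 1 µg/ml doxycycline. They depend on CAG Oct4AID, an OCT4 that bears an auxin-inducible degron, and also express CAG Tir1, the plant receptor through which 500 µM IAA sends the fusion protein for degradation. This course has a single library for each of 0, 1.5, 6, 10 and 24 h. All cells grew on gelatin in N2B27 with 1 µM PD03, 3 µM Chiron and LIF. Depth was 21.7 to 30.8 mega-reads for CreER libraries and 40.5 to 48.7 mega-reads for O4AID libraries. Every O4AID library after 0 h differs from its reference in IAA exposure, in TIR1 engagement and in OCT4 protein at the same time, so these cannot be told apart within the O4AID course. Within the CreER course, 4-OHT exposure, Cre activity and OCT4 loss cannot be told apart either. Neither course holds an untreated library after 0 h, so time in culture cannot be told apart from treatment. Between the courses the line, the strain, the depth, the drug and the speed of OCT4 loss differ as well. The study reports that deletion took more than a day to remove OCT4 fully, in cells also moved to medium with serum and LIF. It reports that IAA removed the tagged protein far sooner. IAA-treated cells without an OCT4 degron are not analysed here.

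AhR is a ligand-activated transcription factor that waits in the cytoplasm in a complex with the chaperone HSP90 and its cochaperone p23. On binding a ligand it moves to the nucleus, pairs with ARNT and binds xenobiotic response elements, whose core is GCGTG. Its known ligands include dioxins, polycyclic aromatic hydrocarbons and many indoles made from tryptophan, and IAA is itself an indole. CYP1 induction is the classic readout in liver and other tissues, and AHRR and TIPARP are induced by the receptor and repress it in turn.

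The window from 250 bases before to 50 bases after the RefSeq start site (GRCm38.p6) was found for 8 of the 10 genes, all but *Ahr* and *Aldh3a1*. The core GCGTG, read on both strands, occurred in 5 of these 8 windows, those of *Cyp1a1*, *Cyp1b1*, *Ahrr*, *Tiparp* and *Arnt*, and in 32.4% of all 32851 windows of that length. The longer form TNGCGTG, which contains the core, occurred in 1 of 8, that of *Ahrr*, and in 5.07% of all windows. The antioxidant response element core TGACNNNGC, known from *NQO1* promoters, occurred in 1 of 8, that of *Arnt*, and in 12.4% of all windows. Shown here are the windows of 3 genes that were far higher under IAA, *Cyp1a1* (chr9:57697363-57697662, plus strand), *Cyp1b1* (chr17:79715012-79715311, minus strand) and *Ahrr* (chr13:74292282-74292581, minus strand), beside that of *Arnt* (chr3:95434140-95434439, plus strand), which was not. Each reads 5′ to 3′ on the strand of the gene, and the capitals mark the core GCGTG or, where it lies on the other strand, CACGC.
Cyp1a1: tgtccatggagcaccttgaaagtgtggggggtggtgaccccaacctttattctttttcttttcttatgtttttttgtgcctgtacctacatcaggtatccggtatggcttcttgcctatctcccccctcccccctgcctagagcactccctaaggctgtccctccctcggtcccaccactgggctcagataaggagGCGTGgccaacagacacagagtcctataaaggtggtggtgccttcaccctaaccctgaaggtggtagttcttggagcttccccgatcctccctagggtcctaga
Cyp1b1: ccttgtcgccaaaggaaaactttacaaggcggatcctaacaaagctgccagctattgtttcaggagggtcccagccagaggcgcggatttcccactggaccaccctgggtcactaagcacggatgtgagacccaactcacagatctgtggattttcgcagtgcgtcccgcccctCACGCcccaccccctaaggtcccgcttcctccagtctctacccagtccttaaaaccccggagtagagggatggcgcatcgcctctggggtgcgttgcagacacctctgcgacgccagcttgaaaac
Ahrr: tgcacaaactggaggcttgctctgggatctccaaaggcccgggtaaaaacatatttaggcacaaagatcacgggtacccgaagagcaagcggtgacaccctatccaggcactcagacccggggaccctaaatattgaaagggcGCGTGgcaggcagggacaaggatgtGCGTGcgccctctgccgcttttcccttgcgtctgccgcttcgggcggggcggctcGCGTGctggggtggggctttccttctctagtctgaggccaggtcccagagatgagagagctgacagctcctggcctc
Arnt: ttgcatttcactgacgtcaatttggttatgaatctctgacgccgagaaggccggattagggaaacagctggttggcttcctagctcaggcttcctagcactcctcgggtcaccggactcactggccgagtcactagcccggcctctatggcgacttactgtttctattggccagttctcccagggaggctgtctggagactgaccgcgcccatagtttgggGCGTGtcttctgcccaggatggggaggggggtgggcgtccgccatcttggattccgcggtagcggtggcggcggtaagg
The core begins 54 bases before the start site in *Cyp1a1*, and 29 bases before it in *Arnt*. It occurs 3 times in *Ahrr*, at 107, 82 and 27 bases before the start. Having the core in this short window therefore did not separate the genes that were higher from *Arnt*. A match is a run of letters and not a measured binding site, and the distal enhancer of *Cyp1a1* lies outside these windows.

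*Pou5f1* RNA checked the labels of the CreER course. It was 321 and 317 CPM at 0 h and 112 and 123 CPM at 36 h, with no overlap, and its log2 fold change was -1.43 ± 0.05 (SE; edgeR quasi-likelihood adjusted p = 4.15e-19). The CreER means at 12, 18 and 24 h were 224, 163 and 133 CPM, so the fall was gradual. In O4AID *Pou5f1* RNA went from 766 CPM at 0 h to 633 CPM at 24 h. The degron acts on protein, so RNA does not check OCT4 loss there. ESC markers were present in every library. The summed level of *Sox2*, *Nanog*, *Esrrb*, *Zfp42* and *Tfcp2l1* was 1597 to 1733 CPM over the CreER libraries, and in O4AID it went from 4657 CPM at 0 h to 1206 CPM at 24 h.

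In O4AID, changes are given as ratios of CPM to the 0 h library with a 95% interval that covers counting error only. Each time is a single library, so there is no replicate check and no p-value. Counts of genes use the difference in log2(CPM + 1), which understates the change of low genes, and a gene counts as higher or lower at a difference of at least 1. Over the 17471 genes with a mean of at least 10 reads in the O4AID libraries, 0.0229% were higher and 0.0630% lower at 1.5 h, and 1 of the 8 AhR genes past that minimum, *Cyp1a1*, was higher. At 6 h the shares were 0.406% and 0.567%, and 5 of the 8 were higher, joined now by *Cyp1b1*, *Ahrr*, *Tiparp* and *Ahr*. Of these 5, *Tiparp* passed the cutoff only narrowly, at 1.003. These 5 were higher at 10 h as well, when 1.08% of all genes were higher and 1.05% lower, and *Nqo1* fell just short at 0.91. At 24 h 3.90% of all genes were higher and 3.03% lower, while 6 of the 8 were higher, with *Nqo1* added, and *Aldh3a1* was lower. The difference for *Aldh3a1* was -1.20, but -0.40 with a pseudocount of 5, which would not count as lower. That for *Ahr* was 1.38, but 0.92 with the 1.5 h library as reference, which would not count as higher. The median over all 10 genes was 0.17, 0.86, 1.14 and 1.40 at 1.5, 6, 10 and 24 h, beside -0.01, -0.01, -0.02 and -0.03 over all genes with enough reads.

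**Figure D1:**
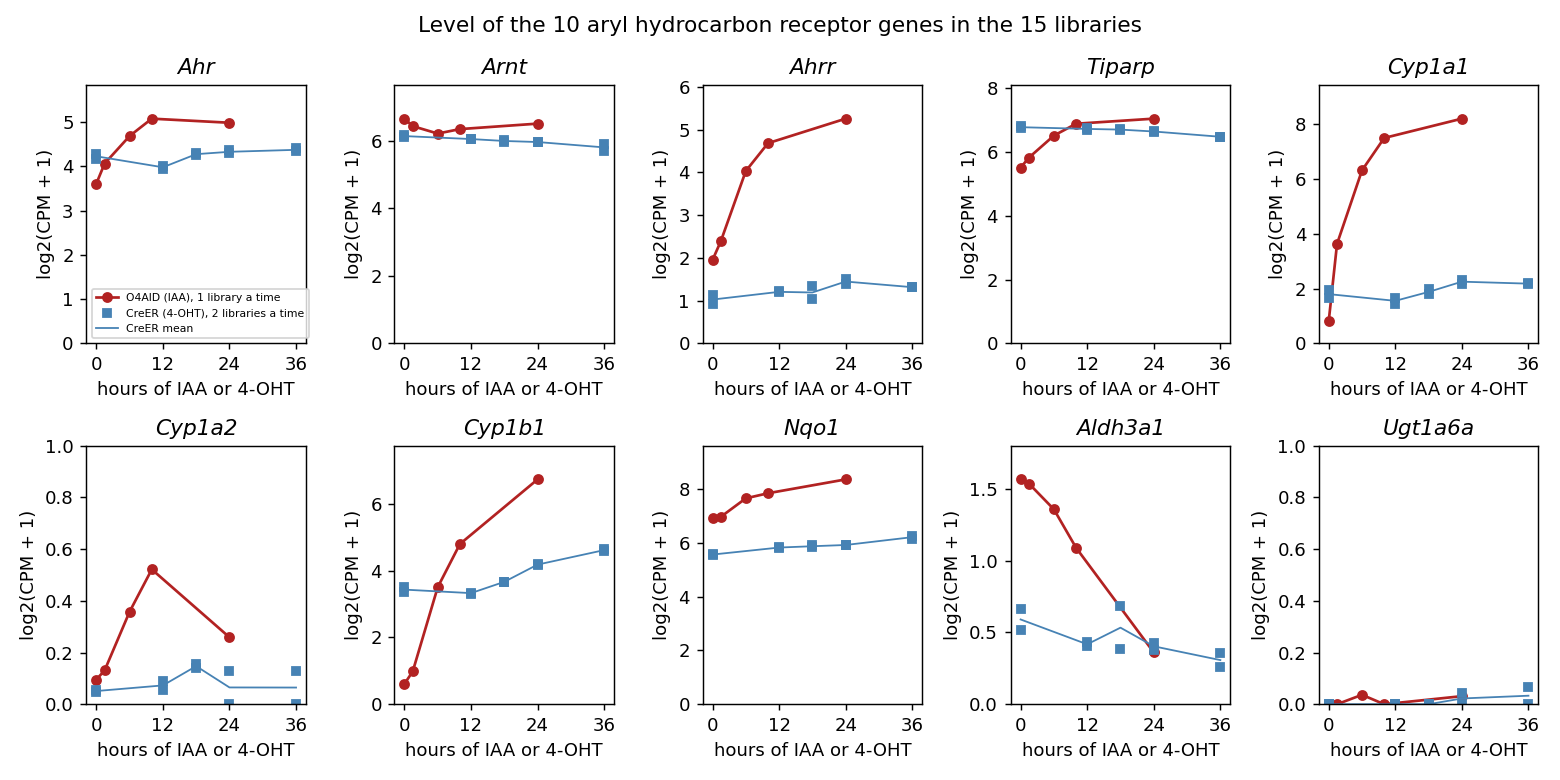
Level of each of the 10 genes, as log2(CPM + 1) with TMM scaling, against hours of IAA in O4AID (circles, 1 library at each time) or of 4-OHT in CreER (squares, 2 libraries at each time, with a line through their means). Vertical scales differ between panels. The O4AID line of *Cyp1a1* begins below the CreER squares and ends far above them, that of *Aldh3a1* runs downward, and *Ugt1a6a* stays next to 0.

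For CreER the quasi-likelihood test of edgeR was run on the counts of all 10 libraries, each time against 0 h, and called at a Benjamini-Hochberg adjusted p under 0.05. Of the 10 genes, 8 passed the filter on low counts, and *Cyp1a2* and *Ugt1a6a* did not. The test called 1 of the 8 at 12 h, beside 0.395% of the 18969 genes tested, and 1 of the 8 at 18 h, beside 8.52%. It called 6 at 24 h, 4 higher and 2 lower, beside 21.6%, and 5 at 36 h, 3 higher and 2 lower, beside 36.6%. At 36 h the median log2 fold change of the 8 was 0.34. The 24 h count was 2 with DESeq2 and between 2 and 6 when 1 replicate was left out. It is not known from the labels whether replicates came from separate cultures, so p-values measure the spread between these libraries, which may be technical.

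*Ahr*, the receptor itself (chr12:35497974-35535038, minus strand), stood at 11.2 CPM in untreated O4AID cells and at 15.7, 24.7, 32.8 and 30.7 CPM after 1.5, 6, 10 and 24 h of IAA. Every IAA library was above 0 h, and the 24 h level was 2.74-fold that at 0 h (95% interval 2.47 to 3.04). From 10 to 24 h the ratio was 0.936 (0.867 to 1.01), an interval that includes 1. The CreER replicates read 18.5 and 17.0 CPM before 4-OHT, then, after 12, 18, 24 and 36 h in turn, 14.4 and 15.2, 18.1 and 18.7, 18.6 and 19.6, and 19.3 and 20.2 CPM. The highest CreER library was thus lower than the O4AID libraries from 6 h on. No time was called, and the 36 h log2 fold change was 0.17 ± 0.08 (edgeR adjusted p = 0.0959). Without the first 0 h replicate it was 0.23 (adjusted p = 0.0486).

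*Arnt* (chr3:95434388-95497240, plus strand), the partner AhR needs to bind DNA, went the other way early in the IAA course. Its level was 100.2 CPM before IAA and 85.7, 73.5, 80.6 and 90.3 CPM in the 1.5, 6, 10 and 24 h libraries. The lowest ratio was 0.734 (0.700 to 0.769) at 6 h, and the 24 h ratio was 0.902 (0.864 to 0.941). In CreER it was 70.9 and 68.5 CPM at 0 h against 62.0 and 61.2 at 24 h and 59.1 and 51.3 at 36 h, with no overlap at either time. The log2 fold change was -0.17 ± 0.05 at 24 h (edgeR adjusted p = 0.0240) and -0.32 ± 0.06 at 36 h (adjusted p = 3.99e-05). The 24 h call was lost with DESeq2 (adjusted p = 0.0590), with total counts only (0.0761) and without 0 h replicate 1 or either 24 h replicate (0.0810 to 0.146).

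*Ahrr*, the AhR repressor (chr13:74211118-74292331, minus strand), competes with the receptor for ARNT. It rested on 126, 179, 601, 965 and 1708 reads along the IAA course, or 2.87, 4.25, 15.4, 24.7 and 37.3 CPM. Each library was higher than the one before it, with intervals of every step above 1, and the 24 h level was 13.0-fold that at 0 h (10.8 to 15.7). In CreER the libraries held 23 to 59 reads, at 0.898 and 1.19 CPM at 0 h, 1.85 and 1.61 at 24 h and 1.49 and 1.50 at 36 h. The 24 h log2 fold change of 0.73 ± 0.24 was called (edgeR adjusted p = 0.0317), whereas that at 36 h, 0.51 ± 0.26, was not (adjusted p = 0.135). The 24 h call was lost with DESeq2 (adjusted p = 0.167) and without 0 h replicate 1 or either 24 h replicate (0.0631 to 0.219).

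*Tiparp* (chr3:65528410-65555518, plus strand) encodes an ADP-ribosyltransferase that marks AhR and limits its activity. In O4AID it climbed from 44.5 CPM through 55.6, 90.2 and 117 CPM to 131 CPM over the 5 libraries. The 24 h level was 2.94-fold that at 0 h (2.79 to 3.09), and 84.1% of that gain in CPM was present at 10 h. CreER *Tiparp* began higher, at 106 and 111 CPM at 0 h, and was 99.4 and 98.1 at 24 h and 88.2 and 87.7 at 36 h. Its direction was opposed between the courses. It fell in CreER by 0.13 ± 0.04 at 24 h (edgeR log2, adjusted p = 0.0324) and by 0.29 ± 0.04 at 36 h (adjusted p = 6.50e-06). The 24 h call was lost with DESeq2, with total counts only, without the filter on low counts and with only the 4 libraries compared (adjusted p = 0.0515 to 0.120), and when 0 h replicate 2 or either 24 h replicate was left out (0.0882 to 0.185). The gene 4931440P22Rik lies opposite *Tiparp* with shared exonic bases and held 15 reads at 0 h and 54 at 24 h of IAA, against 1955 and 5992 for *Tiparp*, and the strand setting of the counting is not given in the sources used here.

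*Cyp1a1* (chr9:57697613-57703822, plus strand), a monooxygenase that oxidises polycyclic aromatic hydrocarbons, was first of the 17471 genes by rise in log2(CPM + 1) at each of the 4 times of IAA. Its reads numbered 33, 479, 3060, 6974 and 13365 in the 0, 1.5, 6, 10 and 24 h libraries, which gave 0.752, 11.4, 78.3, 179 and 292 CPM. The 1.5 h level was 15.1-fold that at 0 h (10.6 to 22.2) and the 6 h level 104-fold (74.0 to 152). It was 238-fold (169 to 346) after 10 h and 388-fold (276 to 564) after 24 h. Few reads at 0 h set the width of these intervals, and steps between later libraries are better measured. From 6 to 10 h the ratio was 2.28 (2.19 to 2.38), and from 10 to 24 h it was 1.63 (1.59 to 1.68). The mean gain was 7.08 CPM per hour over the first 1.5 h, 14.9 from 1.5 to 6 h, 25.1 from 6 to 10 h and 8.08 from 10 to 24 h, so it was steepest between 6 and 10 h.

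In CreER the replicates of *Cyp1a1* read 2.85 and 2.15 CPM before 4-OHT, 2.16 and 1.73 CPM after 12 h and 2.45 and 2.92 CPM after 18 h. They read 4.02 and 3.52 CPM after 24 h, then 3.56 and 3.51 CPM after 36 h. The 24 and 36 h libraries lay above both 0 h libraries. The log2 fold change was 0.62 ± 0.17 at 24 h (edgeR adjusted p = 0.0101) and 0.53 ± 0.18 at 36 h (adjusted p = 0.0242). These rest on 43 to 128 reads a library. With DESeq2 the adjusted p was 0.0817 and 0.129, and without 0 h replicate 2 it was 0.180 and 0.284. The 24 h call was also lost without 24 h replicate 1 (0.137), and the 36 h call with total counts only (0.0553) and without either 36 h replicate (0.0898 and 0.0740).

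*Cyp1a2* (chr9:57676937-57683655, minus strand), the hepatic monooxygenase that oxidises caffeine and aromatic amines, starts 13958 bases from *Cyp1a1* on the opposite strand and is induced with it in liver. Here it stayed at the edge of detection. It held 3, 4, 11, 17 and 9 reads along the IAA course and 0 to 3 reads in the CreER libraries. At 10 h its CPM was 6.37-fold that at 0 h (1.84 to 33.9), and at 24 h the ratio was 2.88 (0.718 to 16.5), an interval that includes 1. There were 11.0 *Cyp1a1* reads for each *Cyp1a2* read at 0 h (3.45 to 56.1) and 1485 at 24 h (782 to 3248).

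*Cyp1b1* (chr17:79706953-79715041, minus strand), a monooxygenase of steroids and hydrocarbons found mostly outside the liver, was second to *Cyp1a1* in size of rise from 6 h on, with more of its gain late. Its reads were 23, 41, 403, 1044 and 4812 in O4AID, or 0.524, 0.974, 10.3, 26.7 and 105 CPM. At 1.5 h the ratio to 0 h was 1.86 (1.09 to 3.24), and at 24 h it was 201 (133 to 317). Only 25.1% of its 24 h gain was present at 10 h, against 61.1% for *Cyp1a1* and 63.5% for *Ahrr*. From 10 to 24 h it went up by a further 3.93-fold (3.67 to 4.20), above the 1.63-fold of *Cyp1a1*.

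*Cyp1b1* was also the AhR gene with the largest called change in CreER. Its replicates read 10.3 and 9.31 CPM untreated, 8.92 and 9.13 CPM after 12 h, and 11.7 CPM in both after 18 h. They then read 17.4 and 16.8 CPM (24 h) and 23.1 and 23.9 CPM (36 h). Both late times lay above 0 h without overlap. The log2 fold change was 0.82 ± 0.08 at 24 h (edgeR adjusted p = 3.35e-08) and 1.28 ± 0.08 at 36 h (adjusted p = 1.17e-12). Before treatment the order of the lines was reversed. The CreER mean at 0 h, 9.79 ± 0.678 CPM (SD, n = 2), was 18.7-fold the O4AID level.

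**Figure D2:**
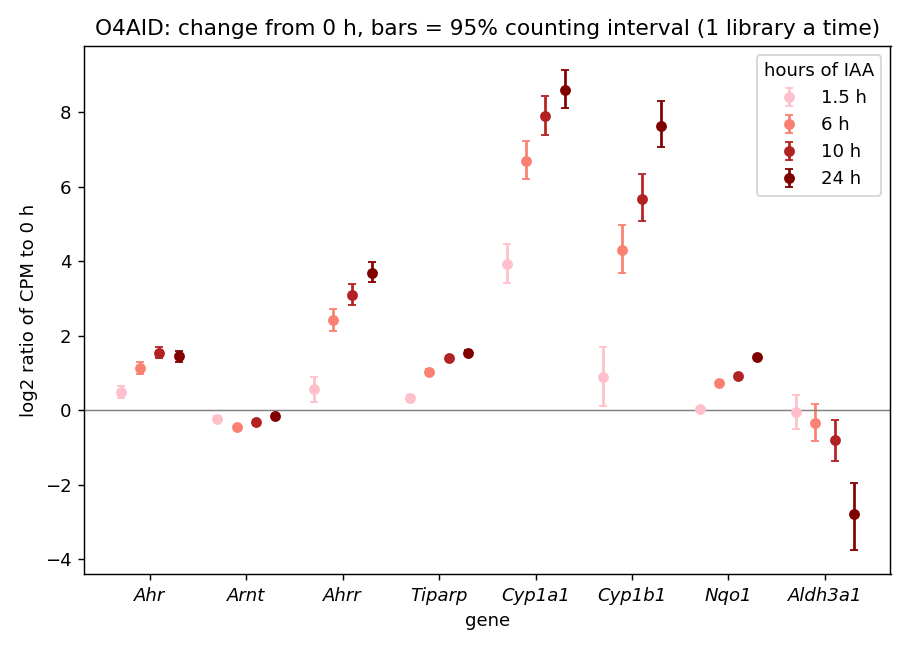
Log2 ratio of CPM at 1.5, 6, 10 and 24 h of IAA to that at 0 h in O4AID for the 8 genes with enough reads, with bars for the 95% counting interval and no replicates. *Cyp1a1* and *Cyp1b1* reach 8.60 and 7.65 at 24 h, *Arnt* stays just below 0, and *Aldh3a1* reaches -2.79.

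*Nqo1* (chr8:107388225-107403206, minus strand), a quinone reductase that answers to NRF2 as well as to AhR, had the highest level per kilobase of the 10 in every library. In the 5 O4AID libraries, in order of time, it was 121, 124, 200.1, 228 and 327 CPM. The 1.5 h ratio was 1.03 (0.987 to 1.07), an interval that includes 1, and the 24 h ratio was 2.70 (2.62 to 2.79). CreER replicates read 45.3 and 47.2 CPM untreated and, over the 4 times of 4-OHT, 56.5 and 54.8, 56.0 and 59.2, 60.1 and 58.8, and 70.3 and 75.8 CPM. Every 4-OHT library was above both 0 h libraries. It rose at every time tested. The 12 h log2 fold change was 0.27 ± 0.06 (edgeR adjusted p = 0.0203) and the 18 h value 0.32 ± 0.06 (adjusted p = 0.000285). Those after 24 and 36 h were 0.37 ± 0.05 and 0.67 ± 0.05 (adjusted p = 1.31e-05 and 1.31e-10). The 12 h call was lost with DESeq2, with total counts only and with only the 4 libraries compared (adjusted p = 0.0593 to 0.0747), and without any 1 of the 0, 12 or 24 h replicates (0.0505 to 0.467).

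*Aldh3a1* (chr11:61207537-61218421, plus strand), an aldehyde dehydrogenase usually counted in the AhR battery, was lower at the end of the IAA course, unlike the 6 genes that were higher. Its reads were 86, 80, 61, 44 and 13 along the IAA course, or 1.96, 1.90, 1.56, 1.13 and 0.284 CPM. The intervals at 1.5 and 6 h include a ratio of 1, and at 24 h the ratio was 0.145 (0.0742 to 0.261). In CreER it held 5 to 16 reads, with 0.586 and 0.429 CPM at 0 h and 0.195 and 0.281 at 36 h. The 36 h log2 fold change of -1.07 ± 0.50 was not called (edgeR adjusted p = 0.0968). *Ugt1a6a* (chr1:88134809-88218997, plus strand), a glucuronosyltransferase, held 0 or 1 read in every library, so no fold is given, and its exons are shared with the other *Ugt1a* genes, where reads could be split.

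The order of levels per kilobase of gene model changed along the IAA course. At 0 h it was *Nqo1* (77.8 CPM per kilobase), *Arnt* (12.5), *Tiparp* (10.2), *Ahr* (1.82), *Aldh3a1* (1.01), *Ahrr* (0.308), *Cyp1a1* (0.287), *Cyp1b1* (0.102), *Cyp1a2* (0.0361) and *Ugt1a6a* (0 reads). *Ahrr* and *Cyp1a1* did not differ there beyond counting error, with a ratio of 1.07 (0.726 to 1.63). At 24 h *Nqo1* (210.2 CPM per kilobase) was followed by *Cyp1a1* (111), *Tiparp* (30.0), *Cyp1b1* (20.5), *Arnt* (11.3), *Ahr* (4.98) and *Ahrr* (4.00). *Aldh3a1* (0.146) and *Cyp1a2* (0.104) came next and did not differ beyond counting error (ratio 1.41, 0.557 to 3.73). On this scale *Cyp1a1* moved from place 15932 among 48709 genes to place 401, and *Cyp1b1* from 19437 to 2775.

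**Figure D3:**
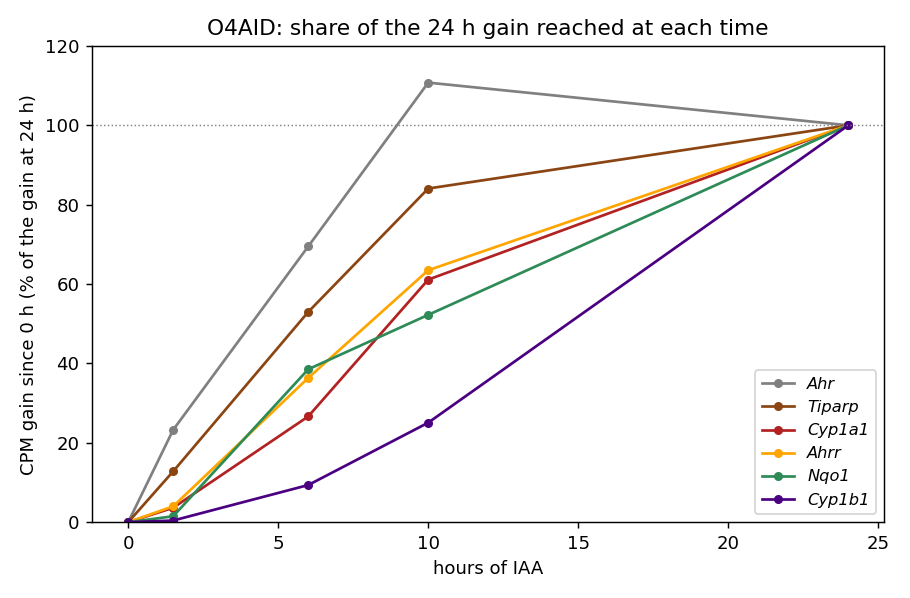
CPM gained since 0 h in O4AID as a percentage of the gain at 24 h, for the 6 genes that were higher at 24 h, with 1 library at each time. At 10 h the share runs from 25.1% for *Cyp1b1* through 52.2% for *Nqo1* to 84.1% for *Tiparp*, and *Ahr* stands at 111%, above its 24 h level.

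Untreated cells of the lines were not alike. O4AID at 0 h was below both CreER 0 h libraries for *Cyp1a1* (0.752 against 2.85 and 2.15 CPM), *Cyp1b1*, *Tiparp* and *Ahr*, and above both for *Ahrr* (2.87 against 0.898 and 1.19 CPM), *Nqo1* (121 against 45.3 and 47.2 CPM), *Arnt* and *Aldh3a1*. These levels are a description with a single O4AID library. Line, strain, doxycycline and transgenes cannot be told apart.

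The 24 h difference between the courses was tested as an interaction in edgeR, the O4AID change minus the CreER change, over all 15 libraries. O4AID has no replicates, so its spread is assumed to equal that of the 5 CreER pairs, which these data cannot check. Of the 9 AhR genes tested, 7 were called, beside 30.2% of 21318 genes, with the change higher in O4AID for 6 and lower for 1. The log2 difference was 8.00 ± 0.26 for *Cyp1a1* (edgeR adjusted p = 3.42e-20), 6.85 ± 0.19 for *Cyp1b1* (adjusted p = 1.14e-21) and 3.00 ± 0.30 for *Ahrr* (adjusted p = 3.68e-09). It was 1.72 ± 0.08 for *Tiparp*, 1.37 ± 0.12 for *Ahr* and 1.10 ± 0.08 for *Nqo1*, with adjusted p-values of 7.86e-17, 5.64e-10 and 6.99e-12. *Aldh3a1* was lower by the same test, at -2.12 ± 0.61 (edgeR adjusted p = 0.00819), a call lost with DESeq2 (0.150), with 36 h in place of 24 h in CreER (0.0705) and without 24 h replicate 1 (0.0598). *Arnt*, at 0.06 ± 0.09 (adjusted p = 0.684), and *Cyp1a2*, at 1.02 ± 1.83 (adjusted p = 0.738), were not called.

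**Figure D4:**
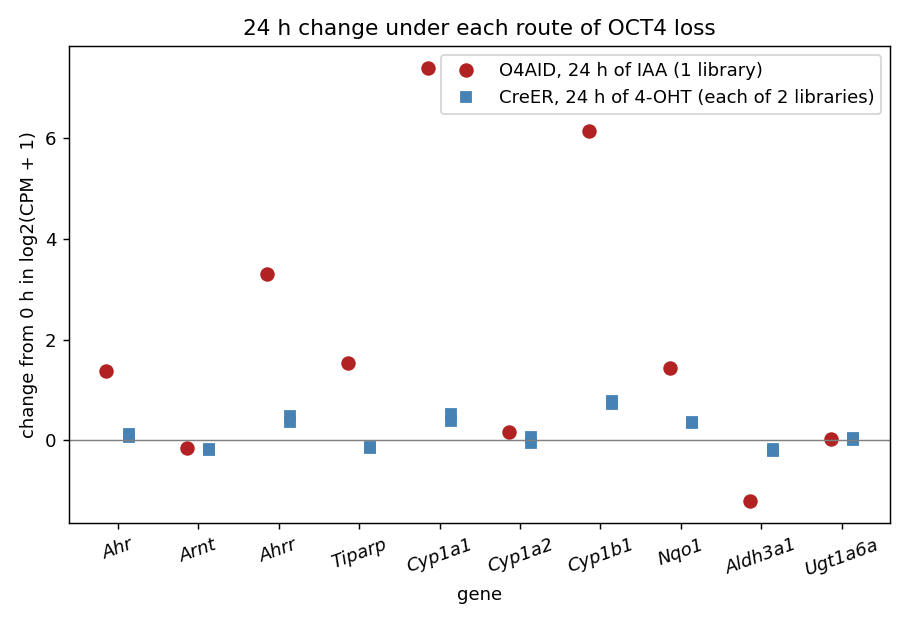
Change from 0 h to 24 h in log2(CPM + 1) for the 10 genes, in O4AID with IAA (circles, 1 library) and in each of 2 CreER libraries with 4-OHT (squares, against the mean of both 0 h libraries). *Cyp1a1* and *Cyp1b1* lie at 7.38 and 6.12 in O4AID against means of 0.45 and 0.75 in CreER, and the marks of *Arnt* lie side by side.

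The wider pathway was described by 3 lists. Of 7 genes for the receptor complex and its cofactors, 0 were higher and 1 was lower at 24 h of IAA. Over all genes with enough reads, 3.90% were higher and 3.03% lower. The median of the 7 was -0.41 in log2(CPM + 1), beside -0.03 over all genes with enough reads. The lower gene was *Hsp90aa1*, an HSP90 chaperone, which went from 9110 to 3608 CPM. In the 24 h comparison of the courses the change, not the level, was called lower in O4AID for 4 of these 7, beside 16.3% of all genes tested. For *Hsp90aa1* the log2 difference in change was -1.20 (edgeR adjusted p = 4.33e-14). Its CreER mean was 1604 CPM at 0 h and 1543 CPM at 36 h, below both O4AID levels given. In CreER at 36 h 2 of the 7 rose and 3 fell, beside 36.6% of all genes called in either direction. Of 13 further AhR targets, 7 had enough reads in O4AID. Of these 7, 0 were higher at 24 h and 1 was lower, beside the same shares of 3.90% and 3.03% over all genes. The median over the 13 was 0.00, but these include genes without reads, such as *Xdh* and *Serpinb2* with 0 reads in every O4AID library. It therefore does not describe the targets with enough reads. The lower gene was *Hes1*, a repressor in the Notch pathway, which went from 33.9 to 9.91 CPM, with a log2 difference between the courses of -2.11 (edgeR adjusted p = 2.89e-12). At 36 h in CreER, where 36.6% of all genes were called, 2 of the 6 tested rose and 2 fell.

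For 8 NRF2 genes, the antioxidant set that shares *Nqo1* with AhR, the median was 0.51 at 6 h of IAA and 0.22 at 10 h. The medians over all genes with enough reads were -0.01 and -0.02. At 6 h 2 of the 8 were higher by at least 1, beside 0.406% of all genes, and at 10 h 1 was, beside 1.08%. At 24 h the median was -0.02, beside -0.03 over all genes, and 2 of the 8 were higher by at least 1, beside 3.90% of all genes. *Srxn1*, sulfiredoxin, was 87.1, 93.4, 196, 159 and 187 CPM along the IAA course, and *Slc7a11*, the cystine importer, was 3.76, 4.77, 11.2, 15.6 and 9.93 CPM. *Srxn1* also rose in CreER, where the 36 h log2 fold change was 0.66 (edgeR adjusted p = 6.31e-10), whereas *Slc7a11* stood at -0.21 (adjusted p = 0.626). The 24 h difference between the courses was called for both, at 0.70 and 1.79 on the log2 scale (edgeR adjusted p = 1.15e-07 and 0.000119). Of the 8, 3 rose and 2 fell in CreER at 36 h, again beside 36.6% called over all genes.

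The genes whose log2(CPM + 1) pattern over the 15 libraries was most like that of *Cyp1a1* were named among 3207 genes that reached 5 CPM and spanned at least 2 on the log2 scale. Outside the AhR genes these were *Il4ra* (Pearson r = 0.97), *Ggt1* (0.96), *Fhdc1* (0.96), *Pdgfra* (0.95) and *Dhrs9* (0.94). *Pdgfra*, which went from 1.21 to 7.71 CPM over 24 h of IAA, is also among the primitive endoderm markers summed below. *Il4ra*, an interleukin receptor chain, went from 0.911 to 7.66 CPM over 24 h of IAA and was 0.924 to 1.57 CPM in CreER. *Ahrr* (0.96) held the third place, *Nqo1* (0.89) place 33 and *Cyp1b1* (0.52) place 1439, the last of these with its higher level in CreER than in O4AID at 0 h. The points share a line, since 10 of the 15 libraries are CreER, so these values describe likeness in this set of libraries.

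Markers of other cell types moved in both courses. In O4AID the summed level of 4 primitive endoderm markers went from 9.54 to 33.1 CPM and that of 4 trophectoderm markers from 2.89 to 14.4 CPM over 24 h, and in CreER these sums went from at most 4.72 and 13.5 CPM at 0 h to at least 9.78 and 35.0 CPM at 36 h. No marker of these lists was at 0 in any group. Their part in the AhR gene values was not tested, and in bulk RNA a change in the share of cells cannot be told apart from a change in RNA per cell. Hepatocyte markers summed to at most 0.478 CPM in any library, at O4AID 0 h, and were 0.109 CPM at 24 h, when 2 of the 4 were at 0. Fibroblast markers summed to 5.08 CPM at O4AID 0 h and 2.55 CPM at 24 h, when 2 of the 5 were at 0, and to between 8.06 and 9.45 CPM in CreER, with 0 of the 5 at 0.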

How the data were processed

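RNA-seq libraries were made by the authors from ribosome-depleted RNA of mouse ESCs with a directional kit. Per the labels and the study's methods, reads were trimmed (Trim Galore 0.1.4), aligned to GRCm38/mm10 (TopHat2 2.1.0) and summed per gene (featureCounts 1.5.1) on Ensembl annotation. Strand and multimapping settings are not given in the sources used here. The deposited files hold raw read counts per gene from the authors, used as deposited. Each file listed 48801 entries, of which 92 spike-in entries held 0 reads and were left out. A deposited table of normalised values was not used.

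The members and gene lists were chosen with earlier results of these data known, and 1 gene of the cofactor list is not reported here. CPM used TMM factors over all 15 libraries. CreER counts were tested with edgeR 4.0.16 (quasi-likelihood, TMM, filterByExpr) in R 4.3.3 over 10 libraries. For the 24 h difference, group means of all 15 libraries were fitted. Scripts were tested on simulated data. O4AID ratios carry exact conditional binomial intervals (Clopper-Pearson, 95%, SciPy 1.17.1), which cover counting error only, since reads carry no molecular identifiers. No fold is given when both libraries hold 3 reads or fewer. Of the lists, genes were named where the 24 h change in O4AID was at least 1 or a 36 h call in CreER was, and 5 genes were named for likeness to *Cyp1a1*. Replicates differed by more than sampling noise, with a chi-square per degree of freedom of 3.02 to 7.00. Alternatives were DESeq2 1.42.0, RLE factors, total counts, other filters, pseudocounts of 0.1 and 5, a replicate block and leaving out each replicate. Promoter windows were taken from RefSeq (GRCm38.p6).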

Additional observations from a re-analysis of the deposited data

Results flagged for a closer look

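The change over 24 h differed between the O4AID and CreER courses for 7 AhR genes by the edgeR interaction test, beside 30.2% of all 21318 genes tested. The spread was taken from CreER replicates alone. The differences, O4AID minus CreER on the log2 scale, were 8.00 for *Cyp1a1*, 6.85 for *Cyp1b1*, 3.00 for *Ahrr*, 1.72 for *Tiparp*, 1.37 for *Ahr*, 1.10 for *Nqo1* and -2.12 for *Aldh3a1*. The last of these rests on 13 reads at 24 h of IAA and 8 to 15 reads in the CreER libraries compared, and its call depended on the tool.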

How the results depend on the processing

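The called 24 h differences between the courses for *Cyp1a1*, *Cyp1b1*, *Ahrr*, *Tiparp*, *Ahr* and *Nqo1* kept their direction and their side of the threshold under every alternative run, and that of *Aldh3a1* did not, as given above. Every alternative kept the same single O4AID libraries at 0 and 24 h, so none could show variation on that side. The number of AhR genes called in CreER at 12 h was 1, and 0 with DESeq2, with total counts only and with only the 4 libraries compared, and 0 to 1 when a replicate was left out. At 18 h it was 1, and 1 to 2 without a replicate. At 24 h it was 6, with 2 under DESeq2 and 2 to 6 without a replicate, and at 36 h it was 5, and 4 to 6 without a replicate. The cause of this variation was not tested. With all replicates, edgeR called 0.395%, 8.52%, 21.6% and 36.6% of all genes tested at 12, 18, 24 and 36 h. DESeq2 called 2585 of 18969 genes at 24 h. For 4 genes not called at 18 h the sign of the log2 fold change turned when a replicate was left out. It ran from -0.077 to 0.34 for *Cyp1a1*, from -0.00047 to 0.56 for *Ahrr*, from -0.0087 to 0.12 for *Ahr* and from -0.71 to 0.27 for *Aldh3a1*.

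The median change of the 10 genes in O4AID was positive in every alternative. With a pseudocount of 0.1 it was 0.27 at 1.5 h, 1.08 at 6 h and 1.47 at 10 h. With a pseudocount of 5 it was 0.074, 0.79, 1.06 and 1.27 at 1.5, 6, 10 and 24 h. With total counts only it was 0.94, 1.24 and 1.53 at 6, 10 and 24 h, and over the 8 genes with enough reads 0.34, 1.04 and 1.42 at 1.5, 6 and 10 h. Against the 1.5 h library it was 0.65, 0.94 and 1.07 at 6, 10 and 24 h. The median 24 h difference between the courses was 1.17, and 1.21 and 1.06 with pseudocounts of 0.1 and 5, 1.27 with total counts only, 1.20 with RLE factors, 1.01 with CreER at 36 h, and 1.157 to 1.188 without a replicate.

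Equal replicate numbers did not pair the CreER libraries. Correlations of the replicate 1 deviations ran from -0.02 to 0.05 over 10 pairs of times. Of 10 libraries, 6 correlated best with their own number. Deviations of the 2 libraries at a time mirror each other, so both always count together. With the replicate number as a block, the fits called 1, 1, 6 and 5 AhR genes in CreER at 12, 18, 24 and 36 h and 7 for the difference between the courses, the same numbers as without it. Among all genes these block fits called 89, 1677, 4139 and 6999 of 18969 in CreER, and 6541 of 21318 for the difference. Over all genes, DESeq2 called 989, 2585 and 3819 genes at 18 h, 24 h and for the difference, against 1616, 4089 and 6445 with edgeR, and 222 were called at 12 h without the filter on low counts, against 75. Without a replicate these counts were 8 to 218 at 12 h, 582 to 2006 at 18 h and 2343 to 4509 at 24 h. With total counts only, 2696 of 7498 calls at 36 h were higher, against 3686 of 6948, and for the difference 3616 of 6347, against 2976 of 6445. Depth limits *Cyp1a2*, *Ugt1a6a*, *Aldh3a1* and, in CreER, *Ahrr*.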
